A study of Mus musculus with 11 samples.

Results

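The mRNAs described here encode the chymotrypsins (Ctrb1, Ctrc and Ctrl), elastases (Cela1, Cela2a and Cela3b) and carboxypeptidases (Cpa1 and Cpb1) of the exocrine pancreas. These 8 genes were taken by their gene names from gene count tables with 54532 genes for the pancreas and 46078 genes for epididymal adipose tissue. The libraries came from male C57BL/6J mice that were 16 weeks old. Mice of the obesity-related alcohol-induced acute pancreatitis (OA-AP) group were made obese by 12 weeks of high-fat feeding, after which ethanol was injected into the peritoneum 2 times, 1 h apart, at 2 g/kg. Control mice were lean, ate chow and were injected with saline on the same schedule, and tissue was taken hours after the injections. Diet and ethanol therefore differed together between the groups and cannot be told apart. The pancreas was represented by 2 control and 3 OA-AP libraries of 14188832 to 17238919 counts, and the adipose tissue by 3 and 3 libraries of 20825177 to 27928097 counts. The sources used here do not say whether each library came from its own mouse, so p-values measure only the spread between these libraries, which may be partly technical. Adipose control replicate 2 stood apart from the other libraries in these genes, and the adipose results that rest on it are given with and without it.

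Acinar cells make these enzymes as inactive zymogens, pack them into granules and release them into the duct. In the intestine, trypsin removes the activation peptides, after which chymotrypsins and elastases cut inside dietary proteins and carboxypeptidases take residues off the new ends. Early activation of zymogens inside the acinar cell is a textbook feature of acute pancreatitis, and acinar enzyme genes are driven by a complex of Ptf1a with Rbpjl that binds an E-box together with a TGGGAA box.

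In the control pancreas the 8 mRNAs together made up 39.5% and 40.8% of all counts. In the OA-AP libraries they made up 32.0%, 33.1% and 35.2%. The groups did not overlap, at 40.2% ± 0.904 (SD, n = 2) and 33.4% ± 1.66 (SD, n = 3), with p = 0.1 by a two-sided exact permutation test, the smallest p this design allows. In a bulk sample, fewer acinar cells and less enzyme mRNA per acinar cell cannot be told apart. 5 of the 8 genes (Ctrc, Ctrl, Cela2a, Cpa1 and Cpb1) had a lower share of the library in each OA-AP library than in either control, while 8.69% of the 12884 genes tested in the pancreas were lower without overlap. Cela1 was higher without overlap, as were 60.4% of the genes tested. Ctrb1 and Cela3b overlapped between the groups.

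**Figure D1:**
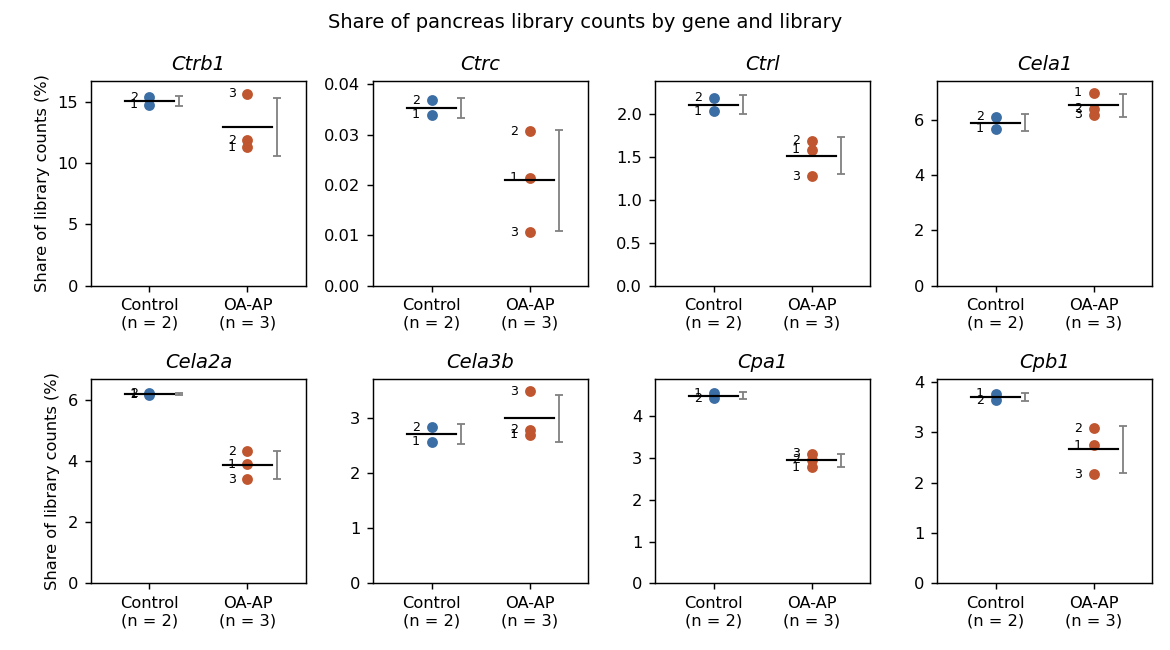
Share of all library counts (%) for each of the 8 genes in the pancreas, with 1 panel and 1 linear axis from 0 per gene. Points are libraries with their replicate number, horizontal lines are group means and brackets are ± SD (control n = 2, OA-AP n = 3). Ctrl, Cela2a, Cpa1, Cpb1 and Ctrc sit lower in all 3 OA-AP libraries, Cela1 sits higher, and OA-AP replicate 3 holds the highest Ctrb1 and Cela3b shares and the lowest Ctrc share.

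Fold changes depended on how the libraries were scaled, and the most counted genes filled different parts of the libraries in the 2 groups. In control libraries, 56.6% and 58.2% of counts fell on the top 10 genes, and in OA-AP libraries 43.5% to 47.7%. Trimmed mean of M-values (TMM) factors, which set the bulk of genes level, were 0.70 and 0.79 in the controls and 1.11 to 1.32 in OA-AP. With them, the median log2 fold change of all genes tested was 0.04, and with library totals alone it was 0.75. On counts put on a common library total (CPM) and scaled by TMM, the 8 genes summed to 542389 ± 60793 (SD, n = 2) in control and 276432 ± 38091 (SD, n = 3) in OA-AP pancreas. Each of the 8 was lower in every OA-AP library than in both controls on this scale, as were 29.4% of the genes tested.

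6 of the 8 genes (Ctrc, Cela2a, Cpa1, Ctrl, Cpb1 and Ctrb1) fell in OA-AP pancreas by edgeR's quasi-likelihood test with Benjamini-Hochberg adjustment, at an adjusted p under 0.05 and a change of at least 1.5-fold. The same call was made for 13.5% of the 12884 genes tested in the lower direction and for 29.8% in either direction. The median log2 fold change of the 8 was −1.20. With library totals alone, edgeR called 2 of the 8 lower (Cela2a and Cpa1), beside 3.93% of all genes tested lower and 49.3% in either direction, and the members' median was −0.48. That scaling also moved the part of calls in the higher direction from 54.5% to 92.0% over all genes.

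**Figure D2:**
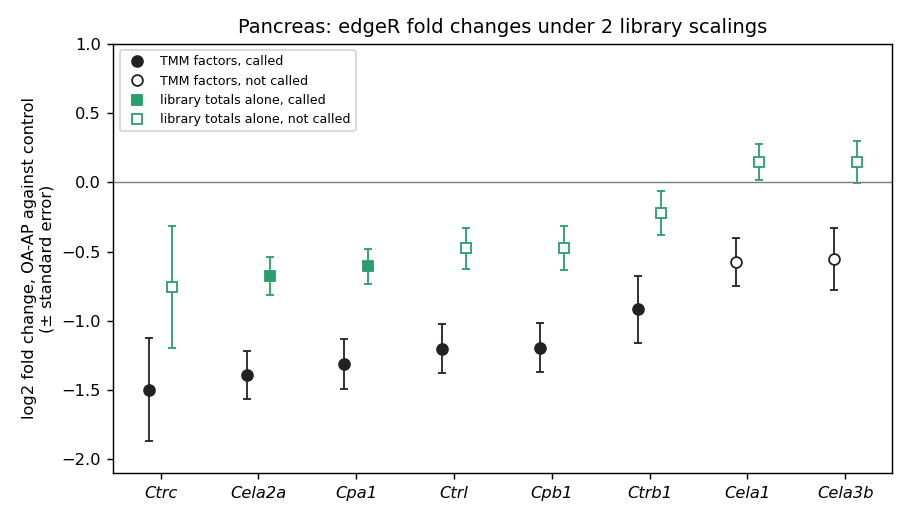
log2 fold change of OA-AP against control pancreas (± standard error) for the 8 genes from edgeR, with TMM factors (circles) and with library totals alone (squares). Filled symbols passed an adjusted p of 0.05 and a change of 1.5-fold. All 8 circles lie below 0, from −1.498 (Ctrc) to −0.56 (Cela3b), and the squares of Cela1 and Cela3b lie at 0.15.

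The sequences before the start sites are shown for the pair of genes with the lowest fitted values after Ctrc (Cela2a and Cpa1) and for the pair whose share of the library was not lower (Cela1 and Cela3b). They are the 250 bases before the start of each gene in RefSeq on GRCm38.p6, read 5′ to 3′ on the gene's strand, at chr4:141826006-141826255 (minus strand, Cela2a), chr6:30638968-30639217 (plus strand, Cpa1), chr15:100687921-100688170 (minus strand, Cela1) and chr4:137430521-137430770 (minus strand, Cela3b). Capitals mark TGGGAA on either strand and TATAAA on the gene's strand.
Cela2a: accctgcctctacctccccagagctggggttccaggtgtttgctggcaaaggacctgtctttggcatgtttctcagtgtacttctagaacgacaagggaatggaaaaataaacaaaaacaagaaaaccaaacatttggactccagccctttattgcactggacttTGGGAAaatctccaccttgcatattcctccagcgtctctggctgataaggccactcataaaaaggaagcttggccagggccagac
Cpa1: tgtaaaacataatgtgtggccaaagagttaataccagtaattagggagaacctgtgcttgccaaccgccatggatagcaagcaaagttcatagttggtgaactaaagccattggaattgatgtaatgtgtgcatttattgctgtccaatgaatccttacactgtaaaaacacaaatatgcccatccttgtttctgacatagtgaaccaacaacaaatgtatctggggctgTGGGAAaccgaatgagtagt
Cela1: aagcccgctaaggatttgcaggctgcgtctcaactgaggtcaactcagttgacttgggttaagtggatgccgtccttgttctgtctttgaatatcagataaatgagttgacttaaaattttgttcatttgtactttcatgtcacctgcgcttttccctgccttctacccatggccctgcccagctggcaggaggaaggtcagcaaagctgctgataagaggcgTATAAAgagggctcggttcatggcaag
Cela3b: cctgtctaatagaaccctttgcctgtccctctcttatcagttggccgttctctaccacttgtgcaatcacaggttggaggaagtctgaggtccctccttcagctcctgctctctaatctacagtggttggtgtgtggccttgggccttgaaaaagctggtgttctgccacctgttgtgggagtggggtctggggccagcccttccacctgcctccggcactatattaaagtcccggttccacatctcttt
RefSeq windows were matched for 7 of the 8 genes. TGGGAA occurred on either strand in 4 of these 7 (Cela2a, Cpa1, Ctrl and Ctrb1) and in 21.6% of 32851 windows of the same length. Its match began 85 bases before the start in Cela2a and 20 bases before the start in Cpa1. The E-box letters CANNTG, which read the same on both strands in their fixed bases, were in 7 of 7 windows and in 66.2% of all windows, and both motifs stood in the same window for 4 of the 7 and for 14.8% of all. TATAAA was found on the gene's strand in Cela1 only, 27 bases before the start, and in 7.59% of all windows. AGATAA (either strand, a GATA-type site) was in Cela1 and Cpb1, beside 9.99% of windows, and CAAGGTCA (either strand, an Nr5a2-type site) was in none of the 7, beside 1.33%. Cpb1, which fell, and Cela1 and Cela3b held no TGGGAA in this window. These matches describe letters and not bound sites.

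Among the chymotrypsins, Ctrb1 (ENSMUSG00000031957, chromosome 8, 111686519 to 111691010, minus strand of GRCm38) encodes chymotrypsinogen B, which cuts after bulky aromatic residues. It had the highest count of all genes in each of the 5 pancreas libraries. It took 14.8% and 15.4% of the control counts and 11.3%, 11.8% and 15.6% of the OA-AP counts. OA-AP replicate 3 lay above both controls and the other OA-AP libraries lay below them, so the groups overlapped (p = 0.4, two-sided exact permutation test). On TMM-scaled CPM the means were 203261 ± 23970 and 107535 ± 29319, and Ctrb1 fell with a log2 fold change of −0.92 (SE 0.24, adjusted p = 0.0216 in edgeR). The call was lost without control replicate 1 (adjusted p = 0.0914 in edgeR), control replicate 2 (0.173), OA-AP replicate 1 (0.0704) or OA-AP replicate 2 (0.0528). Without OA-AP replicate 3 the log2 fold change was −1.21 (adjusted p = 0.000191 in edgeR).

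Ctrl (ENSMUSG00000031896, chromosome 8, 105932003 to 105933862, minus strand) encodes a chymotrypsin-like protease. Its share was 2.04% and 2.20% in control and 1.59%, 1.69% and 1.28% in OA-AP pancreas. Each OA-AP library lay below both controls (p = 0.1, two-sided exact permutation test). Ctrl fell from 28605 ± 4085 to 12443 ± 1145 TMM-scaled CPM, a log2 fold change of −1.20 (SE 0.17, adjusted p = 0.00181 in edgeR).

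Ctrc (ENSMUSG00000062478, chromosome 4, 141814962 to 141846359, minus strand) encodes chymotrypsin C, known for degrading trypsinogen. It had by far the lowest counts of the 8, with 0.0339% and 0.0368% of control counts and 0.0214%, 0.0307% and 0.0106% of OA-AP counts. All 3 OA-AP libraries lay below the controls, and OA-AP replicate 3 stood lowest (p = 0.2, two-sided exact permutation test). Its rank by counts was 86 and 75 in control and 214, 133 and 465 in OA-AP libraries. The fitted log2 fold change of −1.498 had the widest error of the 8 (SE 0.37, adjusted p = 0.0256 in edgeR). It passed neither without control replicate 1 (adjusted p = 0.0882 in edgeR), control replicate 2 (0.139) or OA-AP replicate 1 (0.0525), nor without the filter on low counts (0.131). The annotated exons of Ctrc share 305 bases with those of Cela2a on the same strand, 21.4% of the Ctrc exon length, and how reads in shared bases were counted is not given in the sources used here. Cela2a had 563545 to 906174 counts per library and Ctrc 1830 to 5288, so the level of Ctrc is uncertain. Both genes also share 94 exon bases with Casp9 on the opposite strand, which had 1754 to 4842 counts.

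Among the elastases, only Cela2a was called lower by edgeR with TMM factors. The fitted log2 fold changes of Cela2a (−1.39), Cela1 (−0.57) and Cela3b (−0.56) were all negative, and differences between them were not tested. Cela2a (ENSMUSG00000058579, chromosome 4, 141814962 to 141826160, minus strand) encodes elastase 2A, which cuts after medium to large hydrophobic residues. Its share was 6.16% and 6.21% in control and 3.90%, 4.31% and 3.40% in OA-AP pancreas. Every OA-AP library was below both controls, which lay close to each other (p = 0.1, two-sided exact permutation test). Cela2a fell from 83404 ± 7983 to 31744 ± 2847 TMM-scaled CPM, a log2 fold change of −1.39 (SE 0.17, adjusted p = 0.000954 in edgeR). With library totals alone it was −0.68 and still called (adjusted p = 0.00214 in edgeR).

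Cela1 (ENSMUSG00000023031, chromosome 15, 100674421 to 100687921, minus strand) encodes elastase 1, which cuts after small residues. It took 5.67% and 6.12% of control counts and 6.98%, 6.39% and 6.18% of OA-AP counts. All 3 OA-AP shares were above both controls, the nearest by little (p = 0.2, two-sided exact permutation test). On TMM-scaled CPM the order was the other way, with 71654 and 87718 in control and 53001, 51874 and 55745 in OA-AP libraries. Its log2 fold change was −0.57 (SE 0.17, adjusted p = 0.0357 in edgeR), which did not reach 1.5-fold and was not called, and with library totals alone it was 0.15 (adjusted p = 0.368 in edgeR). With DESeq2 it was −0.61 and called lower (adjusted p = 0.00245), as it was with DESeq2 size factors in edgeR (−0.61, adjusted p = 0.0355). The direction of Cela1 thus depended on the scaling.

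Cela3b (ENSMUSG00000023433, chromosome 4, 137420999 to 137430540, minus strand) encodes elastase 3B, a relative with little activity on elastin itself. Its share was 2.57% and 2.83% in control and 2.69%, 2.78% and 3.48% in OA-AP libraries. The groups overlapped, with OA-AP replicate 3 highest (p = 0.6, two-sided exact permutation test). TMM-scaled CPM were 32441 and 40549 in control and 20438, 22605 and 31381 in OA-AP libraries. The log2 fold change was −0.56 (SE 0.22, adjusted p = 0.0897 in edgeR) and was not called, and it was 0.15 with library totals alone. Without OA-AP replicate 3 it was −0.81 and called (adjusted p = 0.00208 in edgeR).

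Cpa1 (ENSMUSG00000054446, chromosome 6, 30639218 to 30645363, plus strand) encodes carboxypeptidase A1, which removes aromatic and aliphatic residues from the carboxyl end. Its share was 4.55% and 4.43% in control and 2.78%, 2.96% and 3.10% in OA-AP pancreas. The groups were well apart, with a tight spread within each (p = 0.1, two-sided exact permutation test). Cpa1 fell from 60550 ± 4295 to 24378 ± 3433 TMM-scaled CPM, a log2 fold change of −1.31 (SE 0.18, adjusted p = 0.0015 in edgeR), and it was −0.61 and called with library totals alone (adjusted p = 0.00231 in edgeR).

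Cpb1 (ENSMUSG00000011463, chromosome 3, 20248264 to 20275733, minus strand) encodes carboxypeptidase B1, which removes basic residues. Its share was 3.77% and 3.64% in control and 2.74%, 3.09% and 2.17% in OA-AP pancreas. No OA-AP library reached the controls (p = 0.2, two-sided exact permutation test). Cpb1 fell from 49911 ± 3297 to 21815 ± 2880 TMM-scaled CPM, a log2 fold change of −1.19 (SE 0.18, adjusted p = 0.00199 in edgeR). Cela2a, Cpa1, Ctrl and Cpb1 kept their calls with each of the 5 libraries left out in turn, with adjusted p up to 0.0402 in edgeR.

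Per kilobase of exon, TMM-scaled CPM in the control pancreas ordered the genes from Ctrb1 (231504 ± 27300, SD, n = 2) through Cela2a (48406 ± 4633), Cpa1 (34600 ± 2455), Cela1 (34556 ± 4926), Ctrl (24745 ± 3534), Cela3b (21919 ± 3444) and Cpb1 (15198 ± 1004) to Ctrc (335 ± 49.0). Cpa1 and Cela1 overlapped in level, as did Ctrl and Cela3b, and the other neighbours in this order did not overlap. In OA-AP the order was Ctrb1 (122477 ± 33393, SD, n = 3), Cela1 (23218 ± 863), Cela2a (18424 ± 1652), Cela3b (14900 ± 3480), Cpa1 (13931 ± 1962), Ctrl (10764 ± 990.3), Cpb1 (6643 ± 877) and Ctrc (118 ± 53.9). Here Cela2a overlapped with Cela3b and Cela3b with Cpa1. Cela1 stood above Cela2a in all 3 OA-AP libraries and below it in both controls.

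The make-up of the family was also read within each library, where no scaling factor enters. Cela1 made up 14.3% and 15.0% of the summed counts of the 8 genes in control and 21.8%, 19.3% and 17.5% in OA-AP libraries. Cela3b made up 6.50% and 6.93% in control and 8.42%, 8.41% and 9.87% in OA-AP. Both elastases were a larger part of the family in every OA-AP library. Cela2a was a smaller part, at 15.6% and 15.2% in control and 12.2%, 13.0% and 9.65% in OA-AP. Cpa1 was likewise a smaller part, at 11.5% and 10.9% in control and 8.70%, 8.94% and 8.80% in OA-AP. Ctrl was lower without overlap (5.15% and 5.38% against 4.96%, 5.11% and 3.63%), and Ctrb1, Ctrc and Cpb1 overlapped. The exact permutation p-values (two-sided, n = 2 and 3) ran from 0.1 to 1 and the values adjusted over the 8 from 0.267 to 1. Of the 8 parts, 5 did not overlap between the groups, while 73.2% of all genes tested did not overlap when set against the same sum, so the count itself is no more than the background.

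**Figure D3:**
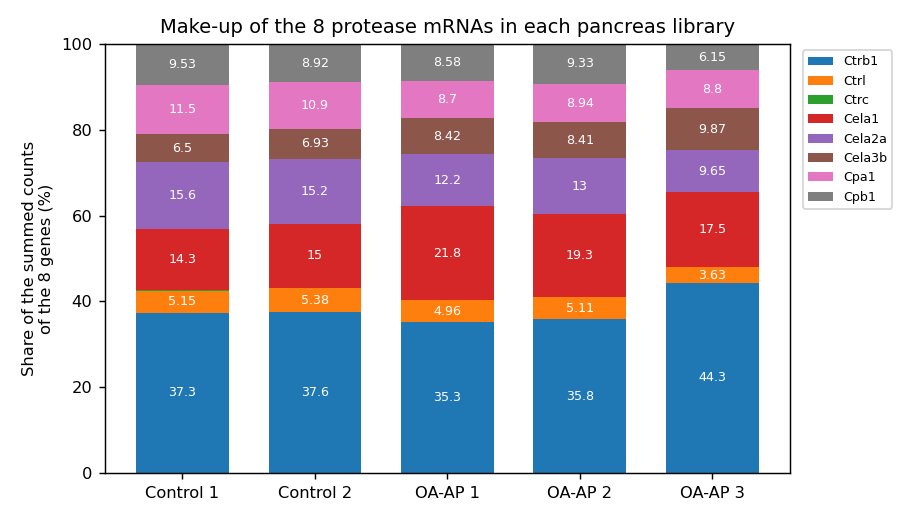
Stacked bars of the percentage that each of the 8 genes takes of their summed counts in each of the 5 pancreas libraries, from 0 to 100%. Cela1 takes 14.3% and 15.0% in control and 17.5% to 21.8% in OA-AP libraries, and Ctrb1 takes 44.3% in OA-AP replicate 3 against 35.3% to 37.6% in the other 4. Ctrc is too small to be seen.

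Set against each other, Cela1 and Cela2a stood in opposite order in the groups. The log2 ratio of Cela1 to Cela2a counts was −0.12 and −0.02 in control and 0.84, 0.57 and 0.86 in OA-AP libraries. Cela3b was also nearer to Cela2a in OA-AP, with Cela2a to Cela3b log2 ratios of 1.26 and 1.13 in control and 0.53, 0.63 and −0.03 in OA-AP. The log2 ratio of Ctrl to Cpb1 had group means of −0.81 and −0.81 and overlapped. Over all pairs of the 8 genes, 15 of 28 log2 ratios did not overlap between the groups, beside 63.8% of all pairs of genes with at least 10 counts in every library.

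OA-AP replicate 3 differed from the other OA-AP libraries in the make-up of the family. Ctrb1 was 44.3% of the family there and 35.3% and 35.8% in OA-AP replicates 1 and 2. Cpb1 was 6.15% there and 8.58% and 9.33% in the others. The range over the 3 OA-AP libraries on the log2 scale of TMM-scaled CPM was 1.38 for Ctrc, 0.72 for Ctrb1, 0.62 for Cela3b and 0.10 for Cela1, beside a median of 0.47 over all genes tested. On this scale Ctrc had the widest range of the 8 over the OA-AP libraries and Cela1 the narrowest. In control the narrowest was Cpb1 (0.13, with Cela1 at 0.29), and as a part of the family Cpa1 varied less than Cela1 in OA-AP.

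Summed marker genes of other cell types also differed between the groups, and their part in these results was not tested. The 12 other acinar markers, none of them at 0, summed to 199431 to 235273 TMM-scaled CPM in control and 76679 to 87765 in OA-AP. The 7 islet markers summed to 940 to 1163 in control and 1285 to 1566 in OA-AP. The 7 neutrophil markers summed to 1.03 to 1.89 in control and to 13.0, 3.60 and 101 in OA-AP replicates 1 to 3, highest in the replicate that stood apart in the make-up of the family. As sums, acinar markers were thus lower and islet and neutrophil markers higher, without overlap. Of single genes tested, 29.4% were lower without overlap on this scale. Gene by gene in edgeR, 8 of the 12 acinar markers were called lower and 1 (Cuzd1, 0.83) higher. Of the 7 islet markers, 1 (Iapp, 0.68) was called higher, with Gcg at −0.33 and Sst at −0.37. None of the 6 neutrophil markers tested was called (1 at an unadjusted p under 0.05). Of the 12884 genes tested, edgeR called 13.5% lower and 2090 higher, so the islet count was near the background. DESeq2 called 5 of the 6 neutrophil markers higher, beside 1981 of all genes tested. The 7 adipocyte markers, 1 of them at 0 throughout, were also higher (28.9 to 42.4 against 48.4 to 81.6). That sum was mostly Fabp4 (mean 30.8 against 47.9, not called), with Lipe called higher and Adipoq near 0. The 6 mast cell markers, 3 of them at 0 throughout, were lower (12.5 to 12.9 against 2.77 to 11.9, an order not kept in shares of the library). Kit, which was not called, made up most of that sum (mean 12.1 against 7.74). Duct, macrophage, fibroblast and endothelial sums overlapped on this scale. As shares of the library, duct, macrophage and endothelial sums were higher in OA-AP without overlap, beside 60.4% of all genes tested. Mitochondrially encoded genes took 0.801% to 0.833% of control counts and 0.888% to 0.959% of OA-AP counts.

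The pancreas also makes lipases, amylases, nucleases and trypsins. Of 23 other digestive enzyme genes listed, 22 were tested in the pancreas, 12 fell and none rose, beside 13.5% of all genes tested called lower, and their median log2 fold change was −1.27 in edgeR. With library totals alone, 7 fell and 1 rose (median −0.54), beside 3.93% of all genes called lower. Pla2g1b, the pancreatic phospholipase A2, fell from 2690 ± 468 to 460 ± 41.2 TMM-scaled CPM (log2 fold change −2.55, adjusted p = 9.63e-05 in edgeR). Cel, the bile salt-dependent lipase, and Pnlip, pancreatic lipase, each fell with a log2 fold change of −1.62 (adjusted p = 0.000547 and 0.000566 in edgeR). The fitted values of these 3 genes were lower than those of each of the 8 proteases, a difference that was not tested. They were named for the smallest p in their list, which favours large changes. Others of the list, such as Prss2 (−0.36) and Klk1 (0.38, neither called), lay above each of the 8.

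Genes of zymogen activation and inhibition went in both directions. Of 15 genes listed for zymogen activation and inhibition, 7 were tested in the pancreas, 3 rose and 2 fell (median log2 fold change 0.49), beside 29.8% of all genes tested called in either direction. With library totals alone, 5 rose and 1 fell (median 1.17), beside 49.3% of all genes. Serpini2, a pancreatic serine protease inhibitor, fell from 911 ± 25.2 to 86.3 ± 29.8 TMM-scaled CPM (log2 fold change −3.40, adjusted p = 0.000271 in edgeR). Spink1, the trypsin inhibitor of the zymogen granule, fell with a log2 fold change of −1.10 (SE 0.14, adjusted p = 0.000989 in edgeR), a call not made with library totals alone (−0.39, under 1.5-fold). Serpina3n, an acute phase inhibitor related to antichymotrypsin, rose from 0.264 ± 0.233 to 81.2 ± 29.1 TMM-scaled CPM (log2 fold change 8.16, SE 0.57, adjusted p = 0.000238 in edgeR). Its control libraries held at most 5 counts, so the size of this change is imprecise.

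Among 15 genes of the zymogen granule and its release, 3 rose and 2 fell, with a median log2 fold change of −0.08. The number called was close to the 29.8% of all genes tested that were called in either direction. Scaled by library totals alone, 7 rose and 2 fell (median 0.64), beside 49.3% of all genes. Zg16, a lectin of the granule membrane, fell with a log2 fold change of −1.96 (SE 0.24, adjusted p = 0.000943 in edgeR). Stx3, a syntaxin of the granule, rose with 1.39 (SE 0.24, adjusted p = 0.00361 in edgeR) and Scamp1, a secretory carrier membrane protein, with 1.10 (SE 0.18, adjusted p = 0.00304 in edgeR).

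Of 9 acinar transcription factors, 4 fell and 1 rose (median log2 fold change −0.48), beside 13.5% of all genes tested called lower and 29.8% in either direction. Scaled by library totals alone, 2 fell and 4 rose (median 0.23), beside 49.3% of all genes in either direction. Rbpjl, the acinar partner of Ptf1a, fell from 729 ± 5.80 to 105 ± 26.2 TMM-scaled CPM (log2 fold change −2.79, SE 0.20, adjusted p = 0.000114 in edgeR). Bhlha15 (Mist1), which controls the secretory machinery, fell with a log2 fold change of −2.74 (SE 0.32, adjusted p = 0.00144 in edgeR), and Gata4 with −0.81 (SE 0.13, adjusted p = 0.00326 in edgeR), a call not made with library totals alone (−0.10, adjusted p = 0.66 in edgeR). Ptf1a itself had a log2 fold change of 0.09 (SE 0.20, adjusted p = 0.755 in edgeR) and was not called, while with library totals alone it was called higher (0.79, adjusted p = 0.017 in edgeR). It was named after its values were seen.

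The genes whose pattern over the 5 pancreas libraries was most like the mean of the 8 were Spink1, Fam174b, Pnliprp2, Gmppa and Ssr4. Likeness was the root mean square distance between centred log2 CPM profiles, over the 1420 genes outside the family that averaged 5 or more on the log2 CPM scale. The distances were 0.0304 for Spink1, 0.0367 for Fam174b, 0.0595 for Pnliprp2 (a lipase-related protein), 0.0598 for Gmppa (a regulator of GDP-mannose synthesis) and 0.0633 for Ssr4 (a subunit beside the protein translocon of the endoplasmic reticulum), beside a median of 0.627. Among the 8, Ctrl lay nearest to the mean profile (0.0790) and Ctrc farthest (0.480).

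In epididymal adipose tissue, 7 adipocyte markers summed to 27650 to 27811 TMM-scaled CPM in control and 28710 to 30858 in OA-AP libraries. As shares of the library their sums overlapped, at 2.90% to 2.93% in control and 2.79% to 2.92% in OA-AP. In edgeR, 1 of the 7 was called higher and 1 lower, beside 25.1% of all genes tested called in either direction. For the 8 genes, 1 library stood apart. Control replicate 2 held 104771 counts of the 8 genes, 0.464% of the library (95% Wilson interval 0.461% to 0.467%, counting error only), and the other 5 libraries held 182 to 339 counts, 0.000831% to 0.00148%. The share in control replicate 2 was 313 times the highest of the others. The group means of 0.155% ± 0.267 (SD, n = 3) in control and 0.00127% ± 0.000339 (SD, n = 3) in OA-AP overlapped (p = 0.9, two-sided exact permutation test). Without control replicate 2 the means were 0.00107% and 0.00127% (p = 0.5, two-sided exact permutation test, n = 2 and 3), and the direction turned.

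Ctrb1 had 2, 34530 and 3 counts in control adipose replicates 1 to 3, and 1, 4 and 24 in OA-AP. Cela2a had 0, 17155 and 0 counts in control and 0, 1 and 3 in OA-AP, and Cpa1 had 0, 15018 and 2 in control and 4, 0 and 11 in OA-AP. Cpb1 had 11, 16838 and 15 counts in control and 3, 0 and 6 in OA-AP. In each case control replicate 2 was high and all the other libraries held 24 counts or fewer. Cela3b had 0, 7057 and 1 counts in control and 0, 0 and 4 in OA-AP, and Ctrc had 106 counts in control replicate 2 and 0 in the other 5. A count of 0 allows a level of up to 0.107 to 0.144 CPM in these libraries (3 counts, for counting error only).

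Cela1 and Ctrl were the members with 7 or more counts in every adipose library. Cela1 had 312, 8822 and 198 counts in control and 166, 296 and 253 in OA-AP, or 7.09 to 13.8 CPM in the 5 libraries other than control replicate 2. Ctrl had 14, 5245 and 13 counts in control and 8, 7 and 9 in OA-AP. Low Cela1 mRNA was thus present in all 6 libraries, and Ctrl was near the floor in 5 of them. As a share of the library, Ctrl and Cpb1 were lower in each OA-AP library than in all 3 controls (p = 0.1 each, two-sided exact permutation test), beside 35.9% of all genes tested, and none of the 8 was higher without overlap, beside 19.1%. On TMM-scaled CPM only Cpb1 did not overlap, beside 26%. Outside control replicate 2 these differences rest on 0 to 15 counts a library.

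**Figure D4:**
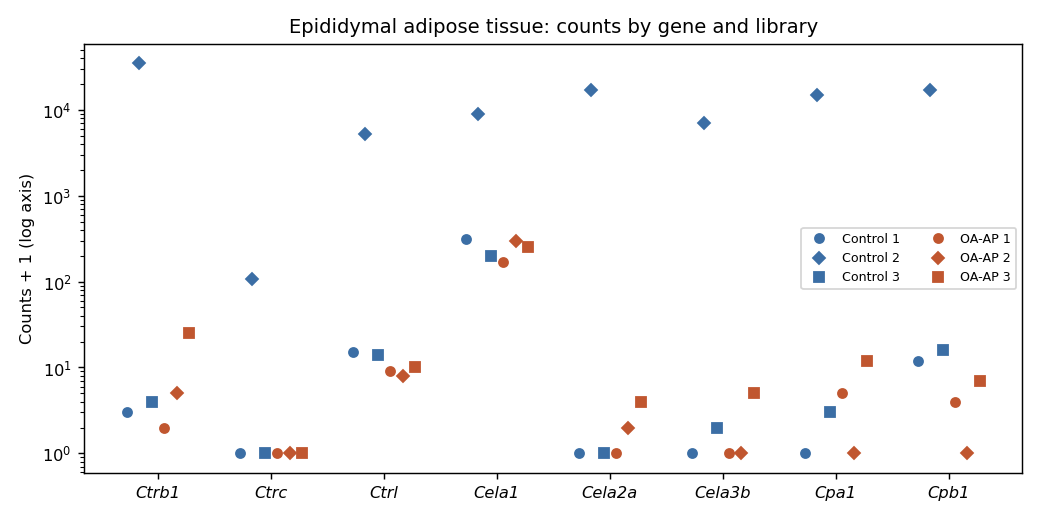
Counts plus 1 on a log axis for the 8 genes in the 6 epididymal adipose libraries (blue, control; orange, OA-AP; symbol, replicate). Control replicate 2 (blue diamonds) lies above all other libraries for every gene, and Cela1 is the gene with more than 100 counts in the other 5.

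Only Cela1 and Ctrl passed the filter on low counts in adipose tissue, and they passed with control replicate 2 among the libraries. Neither was called by edgeR, and 1 of them (Ctrl) had an unadjusted p under 0.05, while 13% of the 15839 genes tested were called lower and 25.1% were called in either direction. With library totals alone neither was called, beside 18.2% of genes lower and 26.8% in either direction. DESeq2 gave no p for either gene. Cela1 had a log2 fold change of −3.46 (SE 1.497, adjusted p = 0.114 in edgeR), and without control replicate 2 it was 0.39 (SE 0.31, adjusted p = 0.38 in edgeR, where 22.2% of genes were called). Ctrl had −7.51 (SE 2.74, adjusted p = 0.0718 in edgeR) and was not tested without control replicate 2. The fitted values of both genes were therefore set by this library.

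In adipose control replicate 2, the 8 genes stood at similar parts of their level in control pancreas. Their CPM ran from 0.663% (Cela1) to 2.01% (Cpb1) of the mean control pancreas CPM, with a median of 1.19%, and their sum was 1.15%. The 12 other acinar markers ran from 0.0801% (Amy2a5) to 3.63% (Ptf1a, 8 counts), with a median of 1.40% and a sum of 1.29%. The medians of both sets lay close together. Amy2a5 is 1 of several near-identical amylase genes, so its counts are uncertain. The amylases outside these markers were low here too. Amy2b held 177 counts (7.50 TMM-scaled CPM, against a mean of 20582 in control pancreas). Amy2a1 held 33 counts (1.40 against 4015). Amy2a2, Amy2a3 and Amy2a4 held 0 counts, against means of 905 to 7326 in control pancreas. The amylases as a set thus stood lower in this library than the medians above. The 7 islet markers had 2 counts in all in this library, 0.0114% of their summed control pancreas CPM, and Ins1 and Gcg were at 0. How pancreatic mRNAs came to be in this library was not tested.

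**Figure D5:**
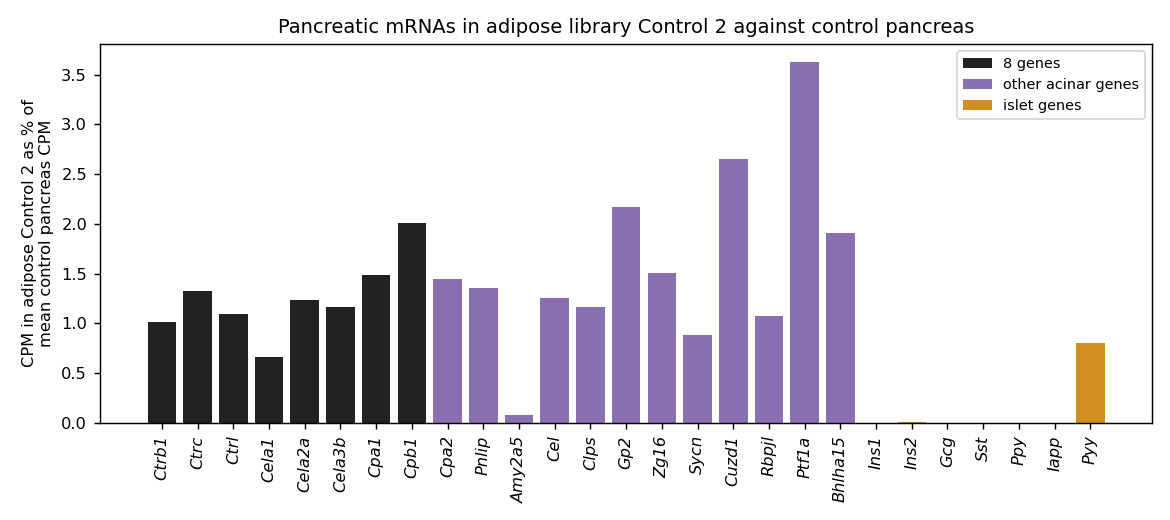
CPM in adipose control replicate 2 as a percentage of the mean CPM of the 2 control pancreas libraries, for the 8 genes (black), 12 other acinar markers (purple) and 7 islet markers (yellow). The 8 genes lie between 0.663% and 2.01%, and the islet bars are at or near 0 except Pyy, which rests on 1 count.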

How the data were processed

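Bulk RNA-seq libraries of pancreas and epididymal adipose tissue were analysed from gene counts that the authors deposited as raw whole-number counts. The authors trimmed reads with Trim Galore 0.6.6, checked them with fastp 0.20.1, aligned them to GRCm38 with STAR and counted them with featureCounts 2.0.1. The strand setting was not given in the sources used here. Each tissue was fitted apart with edgeR 4.0.16 in R 4.3.3 (filterByExpr, TMM factors, robust quasi-likelihood test, Benjamini-Hochberg adjustment over all genes tested, adjusted p under 0.05 and at least 1.5-fold). DESeq2 1.42.0, other scalings, filters, a replicate block and leaving out libraries were alternatives. Shares are percent of all counts, and likeness used log2 CPM with a prior count of 2. Correlations of deviations between same-numbered control and OA-AP libraries were 0.00147 and −0.0410 in pancreas and −0.00580, 0.0562 and −0.163 in adipose tissue. Numbers were not taken as pairs. These correlations cannot exclude pairing, because the deviations of the control pancreas libraries mirror each other. The members and lists were chosen with earlier results of these data known. Named genes were the 8, up to 3 called genes of each list with the smallest p (or its highest gene), and the 5 nearest in pattern. No 2 libraries were identical (chi-square per degree of freedom at least 7.56). Columns of gene descriptions were not used.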

Additional observations from a re-analysis of the deposited data

How the results depend on the processing

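Directions in the pancreas held for Ctrb1, Ctrc, Ctrl, Cela2a, Cpa1 and Cpb1 under all 12 alternatives. Scaling by library totals alone called 2 of the 8 genes lower and 6349 genes in all (3834 with TMM factors), and it turned Cela1 and Cela3b to 0.15. DESeq2, and DESeq2 size factors in edgeR, called 7 of the 8, with Cela1 added. Of the 12884 genes tested, they called 1844 and 1876 lower. With 1 library left out in turn, 4 to 8 of the 8 genes were called lower and 1495 to 4265 genes in all, with the lowest counts when 1 control library was left (1687 without control replicate 1 and 1495 without control replicate 2), where the lone control was assumed to vary like the other libraries. The summed share differed by −6.74 percentage points, by −7.65 to −6.01 with 1 library left out, and by −71.3 as a ratio in percent to all counts outside digestive enzymes, which is a different denominator. Whether replicate numbers pair the libraries is not known, and the correlations between same-numbered libraries cannot settle it. With the replicate number as a block, 8 members and 4099 genes were called in pancreas, and 0 members and 3477 genes in adipose tissue.

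In adipose tissue, 0 to 1 of the 8 genes were called lower with 1 library left out, Cpb1 without control replicate 1 (adjusted p = 0.0414 in edgeR) and Ctrl without control replicate 3 (0.0499). Cela1 ranged from −4.00 to 0.39, the latter without control replicate 2, where the difference in summed share was 0.000194 percentage points, and that range with 1 library left out was −0.231 to 0.000194. All genes called ranged from 2865 to 4476. Ctrl had no value with at least 10 counts required in every library, or without control replicate 1 or 2, because it was then not tested. With 2 or 3 libraries a group, exact tests cannot reach p below 0.1, and 6 of the 8 genes lay at or near a count of 0 in 5 of the 6 adipose libraries.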

Other observations

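Relatives of these proteases are made by other cells, and some were measured in adipose tissue. Of 20 listed, 14 were tested, 7 fell and 1 rose, beside 13% of all genes tested called lower and 25.1% in either direction, with a median log2 fold change of −0.85 in edgeR beside −0.01 over all genes tested. Scaled by library totals alone, 9 fell and 1 rose, beside 18.2% of all genes called lower and 26.8% in either direction. Without control replicate 2, an alternative chosen after seeing the data, 4 fell and 1 rose with a median of −0.84, beside 22.2% of all genes called in either direction, and Mcpt4, Tpsb2 and Cpd were still called. The mast cell proteases Mcpt4 (a chymase) and Tpsb2 (a tryptase) fell with log2 fold changes of −1.49 (SE 0.17, adjusted p = 0.00143 in edgeR) and −1.04 (SE 0.20, adjusted p = 0.00759 in edgeR). Other mast cell proteases in this list, named after their values were seen, did not all fall. Cma1 was called lower (−1.39, adjusted p = 0.0133 in edgeR). Cpa3 (−0.76, adjusted p = 0.061 in edgeR) and the tryptase Tpsab1 (0.11, adjusted p = 0.863 in edgeR) were not called. Mcpt4 stood at 9.30 to 12.2 TMM-scaled CPM in control and 3.23 to 4.20 in OA-AP libraries, without overlap. Cpd, a carboxypeptidase of the secretory pathway, rose with 0.74 (SE 0.13, adjusted p = 0.0061 in edgeR). The 6 mast cell markers, 4 of which are also in this list, summed to 63.5 to 68.0 TMM-scaled CPM in control and 36.1 to 48.6 in OA-AP libraries. The markers outside this list, Kit (log2 fold change 0.35) and Fcer1a (0.48), were not called and lay above 0. The 6 fibroblast markers, 5 of them called lower, summed to 3266 to 4142 in control and 1926 to 2381 in OA-AP libraries, and the 7 neutrophil markers, 6 of them called higher, to 6.90 to 12.8 and 179 to 197. Elane (neutrophil elastase) and Prtn3, relatives in this list, went the other way (−1.41 and −1.40, adjusted p = 0.0419 and 0.0338 in edgeR). Neither was called without control replicate 2 (adjusted p = 0.0706 and 0.0833 in edgeR), and both were named after their values were seen. The part of these cell types in the calls was not tested.

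In the pancreas 6 of the 20 relatives were tested, and 1 fell and 1 rose, close to the 29.8% of all genes called in either direction. Cpn1, a subunit of the plasma carboxypeptidase N, fell from 43.9 ± 0.368 to 9.62 ± 2.14 TMM-scaled CPM (log2 fold change −2.19, adjusted p = 0.000229 in edgeR), and Cpm, a membrane carboxypeptidase, rose with 1.10 (SE 0.34, adjusted p = 0.0427 in edgeR).

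Inhibitors and activators of zymogens in adipose tissue included 9 tested genes, of which 2 rose and 1 fell, beside 25.1% of all genes called in either direction. Serpina3n rose from 484 ± 72.3 to 8069 ± 1081 TMM-scaled CPM (log2 fold change 4.06, adjusted p = 0.000179 in edgeR). Ctsl, the lysosomal cathepsin L, rose with 0.91 (SE 0.17, adjusted p = 0.00629 in edgeR). Serpina1a, an alpha-1-antitrypsin gene, fell with −2.28 (SE 0.44, adjusted p = 0.00773 in edgeR), and near-identical copies of it make its counts uncertain. Of 9 granule genes tested, 1 fell, beside the same share of all genes (Chrm3, a muscarinic receptor, −1.55, adjusted p = 0.00616 in edgeR). Of 5 acinar transcription factors tested, Xbp1 rose with 1.80 (adjusted p = 0.00198 in edgeR) and Rbpjl fell with −4.17 (adjusted p = 0.0474 in edgeR), the latter with 132 counts in control replicate 2 and 1 to 19 in the other 5 libraries. Without control replicate 2 Rbpjl did not pass the filter on low counts and was not tested. Bhlha15, at −0.34 with all libraries (adjusted p = 0.837 in edgeR), then rose with 2.86 (adjusted p = 0.0107 in edgeR). Gata4, not tested with all libraries, was then called lower (−1.95, adjusted p = 0.0365 in edgeR), beside 22.2% of all genes called in either direction. Both calls rest on low counts. Gata4 had at most 20 counts in control and 5 in OA-AP libraries. Bhlha15 had 4 to 29 counts in the libraries other than control replicate 2. Serpina3n, Ctsl, Serpina1a, Chrm3 and Xbp1 were called in the same directions without that library. Of 2 other digestive enzymes tested in adipose tissue, 0 were called by edgeR (1 at an unadjusted p under 0.05) or DESeq2, and Pnlip, the highest of that list, held 18447 counts in control replicate 2 and 1 to 15 in the others.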
